A study of Mus musculus with 4 samples.

Results

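Translation initiation factors (eIFs), the proteins that bring ribosomes to the start codon of a messenger RNA, were followed at transcript level in B lymphocytes of 2 genotypes. The genes were taken by a rule on their symbols, but the family was chosen with earlier results of these data known. The rule took probe sets of the array annotated with exactly 1 gene symbol that begins with Eif1 to Eif6. It left out Eif2s3x and Eif2s3y, the eIF2 kinase genes Eif2ak1 to Eif2ak4, and pseudogenes. This gave 45 of the 22180 genes that had a probe set of their own, and the probe set with the highest mean signal stood for its gene. Eif1, Eif2s1, Eif3g, Eif4g1 and Eif4ebp3 were not analysed here. A gene was tested if its highest signal in the 4 arrays, on the log2 scale used for all signals here, reached 3.83, the median of all values of probe sets with 1 symbol, called the signal floor below. This held for 44 of the 45 genes and for 12456 genes in all.

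The cells were sorted by the B cell surface antigen B220 (CD45R) from cell suspensions of the spleen, thymus and lymph nodes of C57BL/6 mice. The 4 groups, 1 array each, were stimulated Tilcara cells, non-stimulated Tilcara cells, stimulated wild-type cells and non-stimulated wild-type cells. Tilcara mice carry, by their labels, a mutant PKCbeta, a protein kinase that acts below the B cell receptor, on the same C57BL/6 background. Stimulated cells had 4 hours of PMA at 10 ng/mL, which turns on PKC directly, and the calcium ionophore A23187 at 1 µM, which raises calcium inside the cell. The number of mice behind an array, their age and sex and the nature of the Tilcara allele were not stated in the labels. With 1 array per group no spread between replicates exists, so the difference between any pair of groups sets 1 array against 1 other.

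Initiation factors act in a fixed order. The factors eIF1, eIF1A, eIF3 and eIF5 load onto the small ribosomal subunit together with eIF2, which carries the initiator tRNA and GTP, and eIF2B recharges eIF2 with GTP after each round. The cap of the messenger RNA is bound by eIF4E, which joins the scaffold eIF4G and the helicase eIF4A in the eIF4F complex, while eIF4E-binding proteins (4E-BPs) keep eIF4E from eIF4G until the kinase mTORC1 phosphorylates them. Resting B cells make little protein, and activation raises protein synthesis as the cells enlarge before they divide.

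Stimulation was followed by higher signals of most initiation factor genes in both genotypes, but not of all subunits of a complex. Of the 44 genes tested, 25 rose and 2 fell, and 17 were not called (limma, additive fit of stimulation and genotype, adjusted p below 0.05). Over all 12456 genes the same fit called 22.0% as rising and 22.8% as falling, against 56.8% and 4.55% of the initiation factor genes. Rose and fell denote these calls throughout. The median log2 change over the 44 genes was 0.81, against 0.04 over all genes tested. Because the 2 genotypes served as the samples of each state, the fit had 1 residual degree of freedom, and its SEs, 0.15 to 0.23 for these genes, were moderated towards the spread shared by all genes.

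By size, 17 of the 44 genes were at least 2-fold higher in stimulated than in non-stimulated Tilcara cells, and 18 of 44 in wild-type cells. The background over all genes was 11.9% in Tilcara and 13.4% in wild type. Only Eif2d was at least 2-fold lower among these genes, in Tilcara, and none was in wild type, against 14.3% of all genes in Tilcara and 15.9% in wild type. The median difference was 0.89 in Tilcara and 0.74 in wild type on the log2 scale, with 0.04 and 0.033 over all genes. Both responses pointed the same way in all 44 genes, as they did in 82.1% of all genes tested. The count includes Eif4g3, whose Tilcara difference of -0.0054 was too small for its sign to carry weight.

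**Figure D1:**
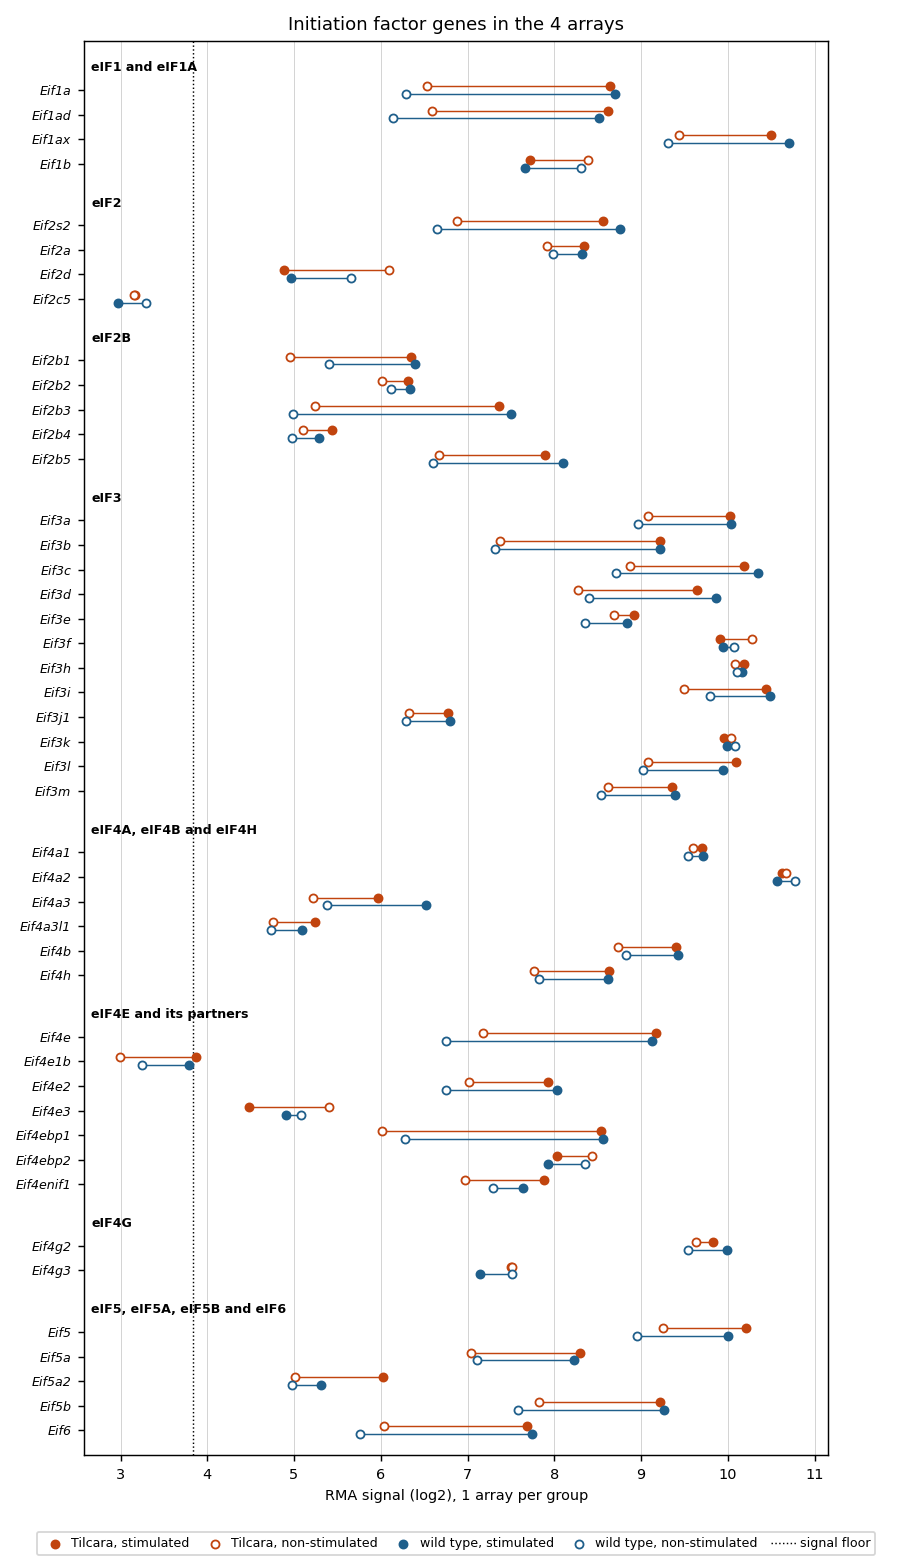
RMA signal (log2, x axis) of the 45 initiation factor genes in each of the 4 arrays, grouped by factor complex, with stimulated arrays as filled points, non-stimulated arrays as open points, a line joining the pair of each genotype and the signal floor of 3.83 dotted. Filled points lie to the right of open ones for 36 of the 44 genes above the floor, in both genotypes, and the length of the lines differs widely within a complex.

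The promoters of these genes were read from RefSeq (GRCm38.p6), 250 bases before to 50 after an annotated start. The table held 35 of the 45 genes, in 47 windows. The E-box CACGTG, a palindrome bound by MYC and related factors, lay in windows of 9 of the 35 genes (25.7%), against 11.6% of the 9706 tested genes in the table and 8.09% of all 27025 genes in it. Both motifs were searched on both strands. Per window the E-box share was 23.4% against 9.95% for tested genes and 7.15% of all 32851 windows. The ETS core, CCGGAAG on either strand, which cannot share a base with the E-box, lay in windows of 14 of the 35 genes (40.0%), against 19.3% of tested genes and 9.93% of all genes, and per window 36.2% against 16.8% for tested genes and 8.86% for all genes. The E-boxes of genes that rose, of the gene that fell and of genes that were not called are shown to compare them, each with 12 bases on both sides, 5′ to 3′ on the strand of the gene, the E-box in capitals:
Eif1b (fell, chr9:120492570-120492599, plus strand): cgtgcggacggtCACGTGgcggcggcgcgc
Eif3a (rose, chr19:60790654-60790683, minus strand): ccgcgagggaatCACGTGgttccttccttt
Eif3f (not called, chr7:108934335-108934364, plus strand): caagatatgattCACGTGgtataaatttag
Eif3k (not called, chr7:28981915-28981944, minus strand): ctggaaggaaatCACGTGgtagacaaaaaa
Eif4a1 (not called, chr11:69672595-69672624, minus strand): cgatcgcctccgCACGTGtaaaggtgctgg
Eif4e (rose, chr3:138527028-138527057, plus strand): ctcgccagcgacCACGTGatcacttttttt
Eif4e (rose, chr3:138527192-138527221, plus strand): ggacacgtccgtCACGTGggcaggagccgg
Eif4h (rose, chr5:134639488-134639517, minus strand): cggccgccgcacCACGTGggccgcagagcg
Eif5a (rose, chr11:69920791-69920820, minus strand): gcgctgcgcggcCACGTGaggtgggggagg
Eif5a (rose, chr11:69921443-69921472, minus strand): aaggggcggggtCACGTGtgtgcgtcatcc
Eif5a2 (not called, chr3:28781123-28781152, plus strand): actaatccgcagCACGTGgggttgccaggg
Eif5a2 (not called, chr3:28781148-28781177, plus strand): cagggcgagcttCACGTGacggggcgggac

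The E-box was not restricted to genes that rose. Of the 19 rising genes with a window 4 held it (Eif3a, Eif4e, Eif4h and Eif5a), of the 13 uncalled genes 4 did (Eif3f, Eif3k, Eif4a1 and Eif5a2), and of the 2 genes that fell Eif1b did. The rising genes Eif1a, Eif2b3, Eif3i, Eif4e1b, Eif4ebp1 and Eif6 had no window and could not be read. Among them are the largest mean changes of the genes tested, those of Eif4ebp1, Eif2b3 and Eif1a. The ETS core stood in windows of 8 of the 19 rising and 5 of the 13 uncalled genes, and of Eif1b. In Eif3f and Eif3k, neither of which was called, the first base of the E-box was at -68 and -44 relative to the start. In Eif4e, which rose, it was at -228 and -64. A match of these letters is a description of the window and does not show binding.

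Among the factors that set up scanning, both genes for eIF1A rose while Eif1b, a gene close to that for eIF1, fell. The protein eIF1A holds the scanning ribosome open, and eIF1 guards against wrong start codons. Eif1a had signals of 8.65 in stimulated against 6.54 in non-stimulated Tilcara cells, and of 8.70 in stimulated against 6.29 in non-stimulated wild-type cells. In Tilcara cells Eif1ax read 10.50 with stimulation against 9.44 without it, and in wild-type cells 10.70 with stimulation against 9.31 without it. Both stimulated arrays stood above both non-stimulated ones for each of these genes, and both rose, Eif1a (limma, log2 change 2.26, SE 0.16, adjusted p = 0.00165) and Eif1ax (limma, log2 change 1.23, SE 0.17, adjusted p = 0.00623). Eif1ad encodes a protein with an eIF1A-like domain that is not a general initiation factor, and it rose about as much as Eif1a. The signal of Eif1ad was 8.62 in the stimulated and 6.59 in the non-stimulated Tilcara array, and 8.51 in the stimulated and 6.14 in the non-stimulated wild-type array (limma, log2 change 2.20, SE 0.17, adjusted p = 0.00175). With stimulation Eif1b stood at 7.72 in Tilcara, against 8.39 without it, and at 7.67 in wild type, against 8.31 without it. Its stimulated arrays lay below its non-stimulated ones in each genotype, and it fell (limma, log2 change -0.66, SE 0.15, adjusted p = 0.0234). The difference between the responses of Eif1a and Eif1b was 2.78 in Tilcara and 3.05 in wild type.

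For eIF2, the GTP-binding carrier of the initiator tRNA, Eif2s2, for the beta subunit, was the subunit gene analysed here. In Tilcara cells Eif2s2 read 8.56 with stimulation against 6.88 without it, and in wild-type cells 8.76 with stimulation against 6.65 without it. The states did not overlap, and Eif2s2 rose (limma, log2 change 1.89, SE 0.18, adjusted p = 0.00259). Eif2a and Eif2d encode proteins that can bring tRNA to the ribosome without eIF2 and are not subunits of it. Eif2a had signals of 8.34 in stimulated against 7.92 in non-stimulated Tilcara cells, and of 8.32 in stimulated against 7.98 in non-stimulated wild-type cells, a difference that was not called (limma, log2 change 0.38, SE 0.15, adjusted p = 0.101). With stimulation Eif2d stood at 4.89 in Tilcara, against 6.10 without it, and at 4.96 in wild type, against 5.66 without it. Eif2d thus read lower after stimulation in each genotype, and it fell (limma, log2 change -0.95, SE 0.19, adjusted p = 0.0173). Eif2c5, which the symbol rule also takes, carries a stem once used for argonaute genes. Its signals lay between 2.97 and 3.30, all below the floor, so it was not tested.

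The exchange factor eIF2B has catalytic subunits, gamma and epsilon, and regulatory subunits, alpha, beta and delta, and its genes did not move as a block. Both catalytic genes rose, and 1 of the 3 regulatory ones did. The signal of Eif2b3 was 7.36 in the stimulated and 5.25 in the non-stimulated Tilcara array, and 7.50 in the stimulated and 4.99 in the non-stimulated wild-type array. Eif2b3, for the gamma subunit, rose by 2.31 (SE 0.17, adjusted p = 0.00171), and Eif2b5, for the epsilon subunit, by 1.36 (SE 0.16, adjusted p = 0.00439). Eif2b5 had signals of 7.89 in stimulated against 6.67 in non-stimulated Tilcara cells, and of 8.10 in stimulated against 6.60 in non-stimulated wild-type cells. Eif2b1, for the alpha subunit, rose as well. With stimulation Eif2b1 stood at 6.35 in Tilcara, against 4.96 without it, and at 6.40 in wild type, against 5.41 without it (limma, log2 change 1.19, SE 0.17, adjusted p = 0.00746). Eif2b2 and Eif2b4, for the beta and delta subunits, differed by 0.30 and 0.33 in Tilcara and by 0.22 and 0.31 in wild type, and neither was called. In Tilcara cells Eif2b2 read 6.32 with stimulation against 6.02 without it, and in wild-type cells 6.34 with stimulation against 6.12 without it. Relative to Eif2b2, the response of Eif2b3 was larger by 1.82 in Tilcara and by 2.29 in wild type.

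The largest factor, eIF3, bridges the small ribosomal subunit and eIF4F, and 7 of its 12 genes rose while 5 were not called. The medians over the 12 genes were 0.84 in Tilcara and 0.77 in wild type. Eif3b, for the scaffold subunit that organises the module on the ribosome's solvent side, had the largest change of the 12. Eif3b had signals of 9.22 in stimulated against 7.37 in non-stimulated Tilcara cells, and of 9.22 in stimulated against 7.32 in non-stimulated wild-type cells. The stimulated arrays of both genotypes were almost equal, as were the non-stimulated ones, and Eif3b rose (limma, log2 change 1.88, SE 0.15, adjusted p = 0.00183). Eif3c, Eif3d and Eif3a followed. The signal of Eif3c was 10.19 in the stimulated and 8.87 in the non-stimulated Tilcara array, and 10.35 in the stimulated and 8.71 in the non-stimulated wild-type array (limma, log2 change 1.48, SE 0.16, adjusted p = 0.00381). In Tilcara cells Eif3d read 9.64 with stimulation against 8.28 without it, and in wild-type cells 9.86 with stimulation against 8.41 without it. Eif3d, whose product can itself bind the cap of some messenger RNAs, rose by 1.41 (SE 0.15, adjusted p = 0.00334) and its other probe set showed a similar change of 1.40. Eif3a, for a large core subunit, rose by 1.00 (SE 0.15, adjusted p = 0.0077), Eif3l by 0.97 (SE 0.15, adjusted p = 0.00822), Eif3i by 0.82 (SE 0.16, adjusted p = 0.0159) and Eif3m by 0.80 (SE 0.15, adjusted p = 0.0143).

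The other 5 genes of eIF3 showed small differences. With stimulation Eif3k stood at 9.96 in Tilcara, against 10.03 without it, and at 9.99 in wild type, against 10.08 without it. Eif3h had signals of 10.19 in stimulated against 10.08 in non-stimulated Tilcara cells, and of 10.17 in stimulated against 10.10 in non-stimulated wild-type cells. The signal of Eif3f was 9.91 in the stimulated and 10.28 in the non-stimulated Tilcara array, and 9.94 in the stimulated and 10.07 in the non-stimulated wild-type array. For Eif3k and Eif3h every array lay close to the others, and Eif3f read slightly lower after stimulation in both genotypes. Their mean log2 changes were -0.081, 0.086 and -0.25, with limma adjusted p-values of 0.691, 0.672 and 0.262. Eif3h was -0.12 after cyclic loess between arrays, so its sign depended on the scaling. Eif3e and Eif3j1 were higher by 0.35 and 0.47 and were not called (limma, adjusted p = 0.139 for Eif3e and 0.0587 for Eif3j1). The PCI and MPN proteins a, c, e, f, h, k, l and m form the octamer at the core of eIF3. Of these 8 genes 4 rose, with the 8 log2 changes ranging from -0.25 to 1.48, and of the 4 genes outside it 3 rose. Eif3b and Eif3k, read on the same arrays, differed in response by 1.92 in Tilcara and 1.99 in wild type.

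**Figure D2:**
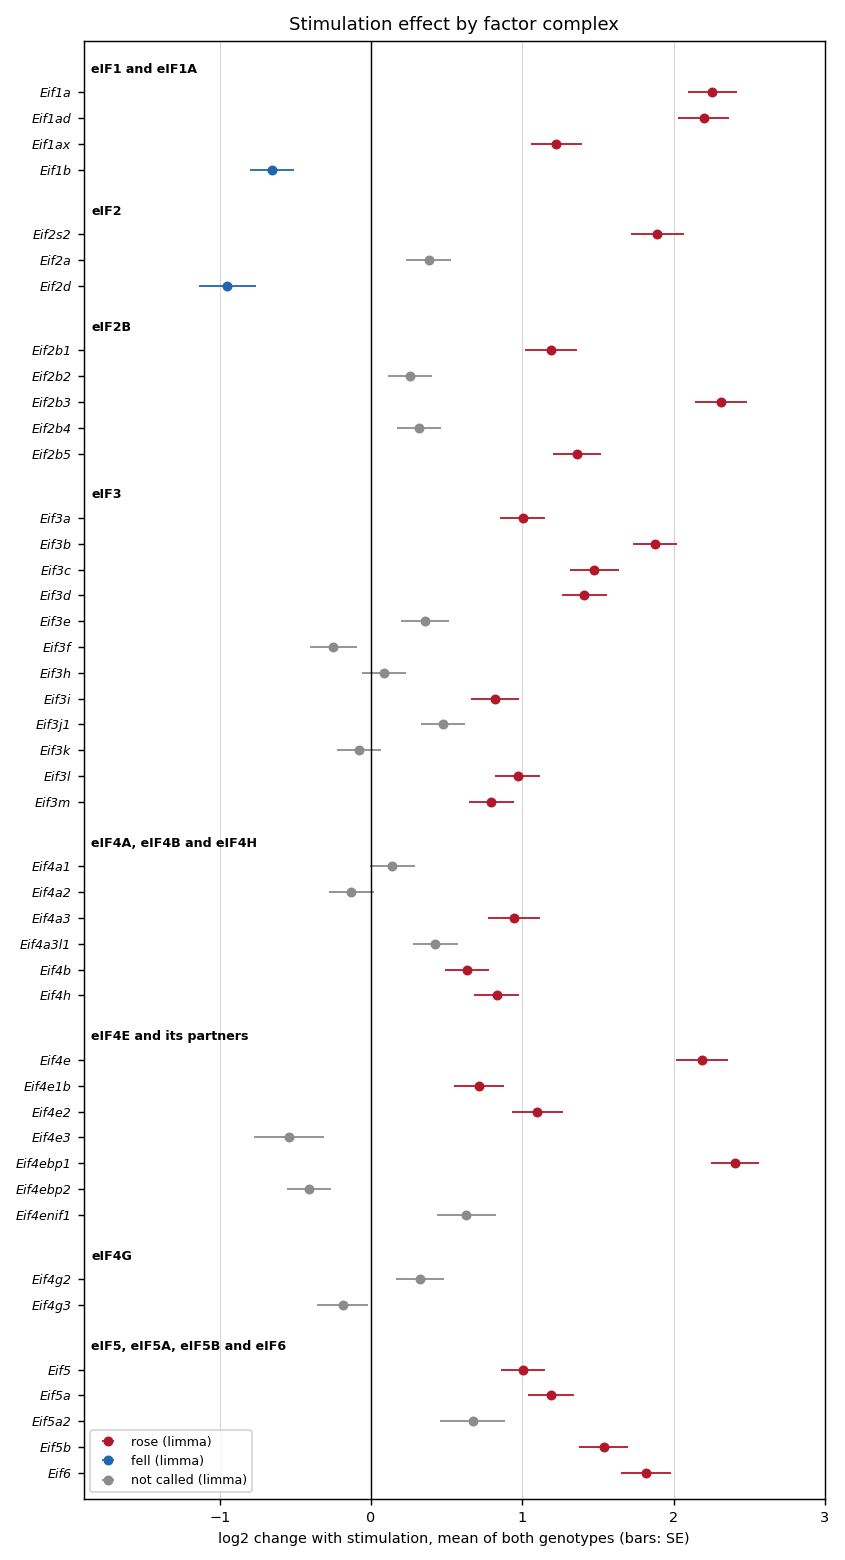
Log2 change with stimulation (x axis, mean of both genotypes, bars show the limma SE) of the 44 initiation factor genes tested, grouped by factor complex and coloured by limma call. The 25 genes that rose lie between 0.63 (Eif4b) and 2.41 (Eif4ebp1), and the 2 that fell, Eif1b and Eif2d, lie at -0.66 and -0.95.

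Of the helicase genes, those for the general enzyme were not called on the probe sets used, and the accessory factors rose. Eif4a1 and Eif4a2 encode 2 forms of eIF4A, which unwinds messenger RNA in front of the ribosome. Eif4a1 had signals of 9.70 in stimulated against 9.60 in non-stimulated Tilcara cells, and of 9.72 in stimulated against 9.54 in non-stimulated wild-type cells. The other probe set of Eif4a1 did not follow this: its signals were 9.95 in stimulated against 8.88 in non-stimulated Tilcara cells, and 10.01 in stimulated against 8.71 in non-stimulated wild-type cells. On that probe set the difference was 1.07 in Tilcara and 1.30 in wild type, against 0.11 and 0.17 on the one used. The mean over both probe sets, 0.66, passed the test (limma, adjusted p = 0.0228), while cyclic loess turned the used probe set to -0.069, so the call and direction of Eif4a1 depended on probe set and scaling.

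Eif4a2 read slightly lower with stimulation and was not called. With stimulation Eif4a2 stood at 10.62 in Tilcara, against 10.68 without it, and at 10.56 in wild type, against 10.77 without it (limma, log2 change -0.13, SE 0.15, adjusted p = 0.523). Its other 2 probe sets had mean changes of -0.51 and -0.40. Eif4b and Eif4h encode RNA-binding proteins that stimulate eIF4A, and both rose. In Tilcara cells Eif4h read 8.63 with stimulation against 7.77 without it, and in wild-type cells 8.62 with stimulation against 7.83 without it (limma, log2 change 0.83, SE 0.15, adjusted p = 0.0124). Eif4b rose by 0.63 (SE 0.15, adjusted p = 0.0265), but after cyclic loess it was at 0.43 and no longer called (limma, adjusted p = 0.0765). Eif4a3 encodes a related helicase of the exon junction complex, not a scanning factor. The signal of Eif4a3 was 5.96 in the stimulated and 5.22 in the non-stimulated Tilcara array, and 6.52 in the stimulated and 5.38 in the non-stimulated wild-type array (limma, log2 change 0.95, SE 0.17, adjusted p = 0.0137). Its near copy Eif4a3l1 differed by 0.49 in Tilcara and 0.36 in wild type and was not called. How the probes share signal between these genes is not known here, so both values are uncertain.

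**Figure D3:**
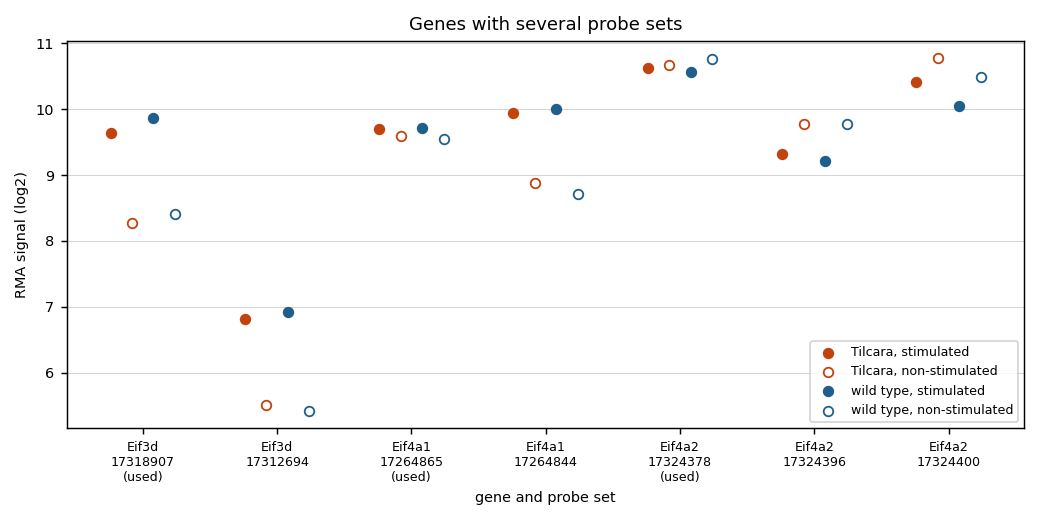
RMA signal (log2, y axis) in the 4 arrays for each probe set of Eif3d, Eif4a1 and Eif4a2, with the probe set number under the gene and the one used marked. Both probe sets of Eif3d change alike, whereas the used probe set of Eif4a1 is nearly level and its other one is higher in both stimulated arrays.

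The cap-binding protein gene and a gene of its inhibitors rose together. The signal of Eif4e was 9.18 in the stimulated and 7.18 in the non-stimulated Tilcara array, and 9.13 in the stimulated and 6.75 in the non-stimulated wild-type array. This is the gene with E-boxes at -228 and -64. Windows of uncalled genes hold the E-box too, and a link to the change of Eif4e was not tested. The stimulated arrays of both genotypes were alike, and both stood far above the non-stimulated arrays. Eif4e was 3.99-fold higher in stimulated Tilcara cells and 5.2-fold higher in stimulated wild-type cells, and it rose (limma, log2 change 2.19, SE 0.17, adjusted p = 0.00186). Eif4ebp1, for 4E-BP1, a repressor that competes with eIF4G for eIF4E, had the largest mean change of the 44 genes. Eif4ebp1 had signals of 8.54 in stimulated against 6.01 in non-stimulated Tilcara cells, and of 8.57 in stimulated against 6.28 in non-stimulated wild-type cells. That was 5.77-fold in Tilcara and 4.87-fold in wild type (limma, log2 change 2.41, SE 0.16, adjusted p = 0.00146). Eif4ebp2, for the related repressor 4E-BP2, read lower after stimulation. With stimulation Eif4ebp2 stood at 8.04 in Tilcara, against 8.44 without it, and at 7.93 in wild type, against 8.35 without it. Its change of -0.41 was not called (limma, adjusted p = 0.0823), but it was -0.62 and called after cyclic loess (limma, adjusted p = 0.0235). The responses of Eif4ebp1 and Eif4ebp2 differed by 2.93 in Tilcara and 2.70 in wild type.

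The remaining cap-binding genes were mixed. In Tilcara cells Eif4e2 read 7.93 with stimulation against 7.01 without it, and in wild-type cells 8.03 with stimulation against 6.75 without it. Eif4e2, for a cap-binding protein that represses translation, rose (limma, log2 change 1.10, SE 0.17, adjusted p = 0.0086). Eif4e3 had signals of 4.48 in stimulated against 5.40 in non-stimulated Tilcara cells, and of 4.91 in stimulated against 5.08 in non-stimulated wild-type cells. Eif4e3, for another cap-binding relative, thus read lower with stimulation in each genotype, by more in Tilcara, which was not tested, and its mean change of -0.54 was not called (limma, adjusted p = 0.124). Eif4enif1, for the protein 4E-T that carries eIF4E into the nucleus, was higher by 0.91 in Tilcara and 0.35 in wild type and was not called (limma, adjusted p = 0.06). Eif4e1b, which mouse oocytes express, exceeded the floor only in the stimulated Tilcara array. With stimulation Eif4e1b stood at 3.87 in Tilcara, against 2.99 without it, and at 3.79 in wild type, against 3.25 without it. It was called as rising (limma, log2 change 0.71, SE 0.17, adjusted p = 0.0271), but it entered the test only through its high array, and the other 24 rising genes were above the floor in both non-stimulated arrays. The scaffold genes analysed were not called. The signal of Eif4g2 was 9.83 in the stimulated and 9.64 in the non-stimulated Tilcara array, and 9.99 in the stimulated and 9.54 in the non-stimulated wild-type array. Eif4g2 encodes a protein related to eIF4G that lacks the eIF4E-binding part, and it was higher by 0.32 on average (limma, adjusted p = 0.167). In Tilcara cells Eif4g3 read 7.50 with stimulation against 7.51 without it, and in wild-type cells 7.14 with stimulation against 7.52 without it (limma, log2 change -0.19, SE 0.17, adjusted p = 0.417). Eif4g3, for another eIF4G scaffold, was level in Tilcara and lower in wild type.

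Factors of the late steps rose in 4 of 5 cases. Eif5 encodes the protein that makes eIF2 hydrolyse its GTP at the start codon, and Eif5b the GTPase that then joins the large ribosomal subunit. Eif5b had signals of 9.22 in stimulated against 7.83 in non-stimulated Tilcara cells, and of 9.27 in stimulated against 7.58 in non-stimulated wild-type cells (limma, log2 change 1.54, SE 0.16, adjusted p = 0.00336). In Tilcara cells Eif5 read 10.21 with stimulation against 9.26 without it, and in wild-type cells 10.01 with stimulation against 8.95 without it (limma, log2 change 1.00, SE 0.15, adjusted p = 0.00758). Eif5 and Eif5b were higher in every stimulated than in every non-stimulated array. The signal of Eif6 was 7.68 in the stimulated and 6.04 in the non-stimulated Tilcara array, and 7.75 in the stimulated and 5.76 in the non-stimulated wild-type array. Eif6, for the factor that keeps free large subunits from joining too early and serves in their assembly, rose by 1.82 (SE 0.17, adjusted p = 0.0025). Eif5a encodes the hypusine-carrying protein that helps ribosomes past difficult peptide bonds. With stimulation Eif5a stood at 8.30 in Tilcara, against 7.04 without it, and at 8.23 in wild type, against 7.11 without it (limma, log2 change 1.19, SE 0.15, adjusted p = 0.00515). Its paralog Eif5a2 read 6.02 in stimulated and 5.01 in non-stimulated Tilcara cells, against 5.31 in stimulated and 4.98 in non-stimulated wild-type cells. The stimulated Tilcara array stood above the others, and this difference within stimulated cells was not tested. The genotype effect over both states, 0.37, was not called (limma, SE 0.22, adjusted p = 0.866). The mean stimulation change of 0.67 was not called either (limma, adjusted p = 0.0653).

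No initiation factor gene was called between the genotypes. In stimulated cells no initiation factor gene differed 2-fold between Tilcara and wild type. Over all genes 0.955% passed that size upwards in Tilcara and 0.747% downwards, so a count of 0 among 44 genes is near the background. In non-stimulated cells none did either, with 0.425% of all genes higher and 0.658% lower. The limma genotype effect called 0 of the 44 genes and 0 of all genes, which is 0.0% higher and 0.0% lower. At an unadjusted p under 0.05 it held 0 of the 44 genes and 667 of the 12456 genes tested. With so few among all genes, a count of 0 among 44 is not read as a result. In stimulated cells the differences ranged from -0.56 (Eif4a3) to 0.71 (Eif5a2), and in non-stimulated cells from -0.45 (Eif2b1) to 0.45 (Eif1ad). Without stimulation 28 of the 44 genes (63.6%) read higher in Tilcara, among them Eif2d (0.44), Eif4e (0.43) and Eif6 (0.28), against 52.2% of all genes. After stimulation 19 of the 44 (43.2%) did, against 51.8% of all genes.

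The size of the response was compared between genotypes on all 4 arrays, with no test. No initiation factor gene had a response that differed by 1 or more on the log2 scale, where 2.32% of all genes had one larger in Tilcara and 1.65% one smaller by that much. The differences, Tilcara minus wild type, ran from -0.75 (Eif4e3) and -0.51 (Eif2d) to 0.56 (Eif4enif1) and 0.68 (Eif5a2). Of the 25 genes that rose, 17 (68.0%) had the smaller response in Tilcara, and so did 61.0% of all rising genes. Their median difference was -0.13, against -0.083 over all rising genes. Across the 44 genes, which share arrays and are not replicates, Pearson's r between the Tilcara and the wild-type response was 0.943, and over all genes 0.913. The 2-fold size was reached upwards by 14 genes in both genotypes, by 3 in Tilcara alone (Eif3l, Eif2b1 and Eif5a2) and by 4 in wild type alone (Eif3a, Eif4a3, Eif4e2 and Eif5). Over all genes tested these counts were 1204, 277 and 462. In the other genotype these 7 genes lay between 0.33 (Eif5a2) and 0.99 (Eif2b1).

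**Figure D4:**
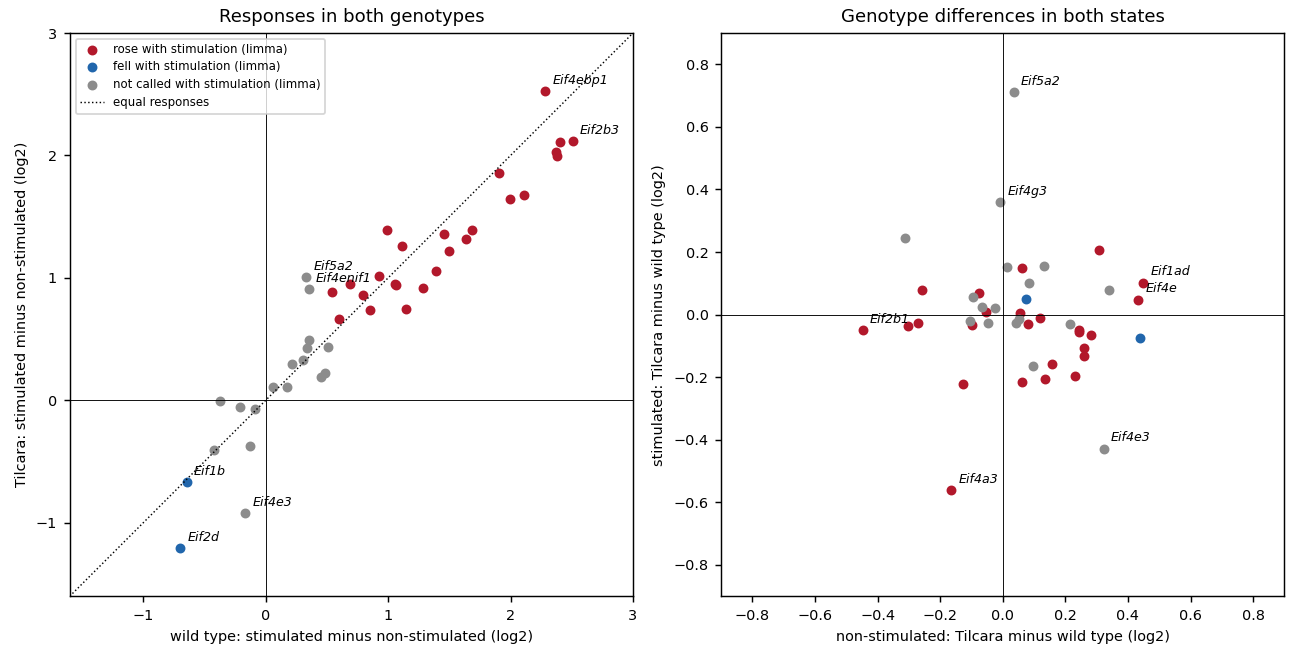
Left, stimulated minus non-stimulated (log2) in Tilcara (y axis) against wild type (x axis) for the 44 genes tested, with the dotted line at equal responses; right, Tilcara minus wild type (log2) in stimulated cells (y axis) against non-stimulated cells (x axis). The responses lie along the line with Eif5a2 and Eif4enif1 above it and Eif4e3 and Eif2d below it, and no genotype difference exceeds 0.71 in size.

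Other genes of translation were read from 9 lists. Their counts are to be read against the 22.0% of all genes that rose and the 22.8% that fell. Among the eIF2 kinases, which shut down initiation under stress by phosphorylating eIF2, Eif2ak2 (PKR) fell by 2.16 (limma, SE 0.19, adjusted p = 0.0022) and Eif2ak3 (PERK) fell by 1.86 (limma, SE 0.17, adjusted p = 0.00254). The list held 4 kinase genes and the genes of 2 phosphatase subunits that undo their work, Ppp1r15a and Ppp1r15b, and the other 4 genes were not called. Ppp1r15a read lower with stimulation in Tilcara (-0.50) and higher in wild type (0.48), a difference between the responses that was not tested. Eif2ak2 had signals of 3.89 in stimulated against 5.81 in non-stimulated Tilcara cells, and of 3.52 in stimulated against 5.93 in non-stimulated wild-type cells. The stimulated wild-type signal of Eif2ak2 lay below the floor and the stimulated Tilcara signal close to it, so the size of its change is uncertain. Mknk2, for a kinase of eIF4E, fell by 1.31 (limma, SE 0.18, adjusted p = 0.00661), and Mknk1 was not called; Pdcd4, the eIF4A inhibitor gene of this list, was not analysed here. Of 20 genes of mTORC1 and its regulators, 5 rose and 5 fell, shares near those of all genes. Those that rose were Larp1 (2.0), which binds messenger RNAs of the translation machinery, Rheb (1.05), the activating GTPase, Mtor (0.98), the kinase, Mlst8 (0.67) and Rptor (0.51), its partners. Those that fell were the lysosomal anchor genes Lamtor2 (-2.25) and Lamtor4 (-1.04), the kinase gene Rps6kb2 (-1.18), the inhibitor gene Tsc1 (-0.78) and the GTPase gene Rraga (-0.66). Over these 10 genes the limma adjusted p ran from 0.00145 (Lamtor2) to 0.0495 (Rptor), and the SEs from 0.15 to 0.17.

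Factors that work beside the eIFs were counted in the same way, and their lists are short. Of the 5 genes of poly(A)-binding proteins and partners 4 rose, with Pabpc4 at 1.44, while Paip2, for an inhibitor of the poly(A)-binding protein, fell by 1.22 (limma, SE 0.15, adjusted p = 0.00495) and its paralog Paip2b rose by 1.14. Of the 7 other initiation and recycling genes 4 rose, among them Tma16 (3.02), for a protein of large subunit assembly, Abce1 (1.33), for the factor that splits ribosomes, and Dhx29 (0.83), for a scanning helicase. Both hypusine enzyme genes, whose products modify eIF5A, rose (Dhps 0.94 and Dohh 0.60). The elongation list holds 8 genes with an Eef symbol, which need not all act in elongation. Of these 3 rose, Eef1e1 (3.03), Eef1d (0.77) and Eef1g (0.55). The other 5 were not called, among them Eef1a1 (0.04) and Eef2 (-0.07). Of 4 release genes tested 2 rose, Etf1 (2.22) and Gspt1 (1.80), and Trmt112 fell (-0.61). Among 10 mitochondrial translation genes 4 rose and 2 fell, with Gfm1 at 1.39, Mtrf1 at -1.39 and Mrrf at 1.29. Both stimulated signals of Mtrf1 lay below the floor, so the size of its change is uncertain. The median change was highest for release factors (0.86) and lowest for the 2 genes of the eIF4E kinase list (-0.77).

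**Figure D5:**
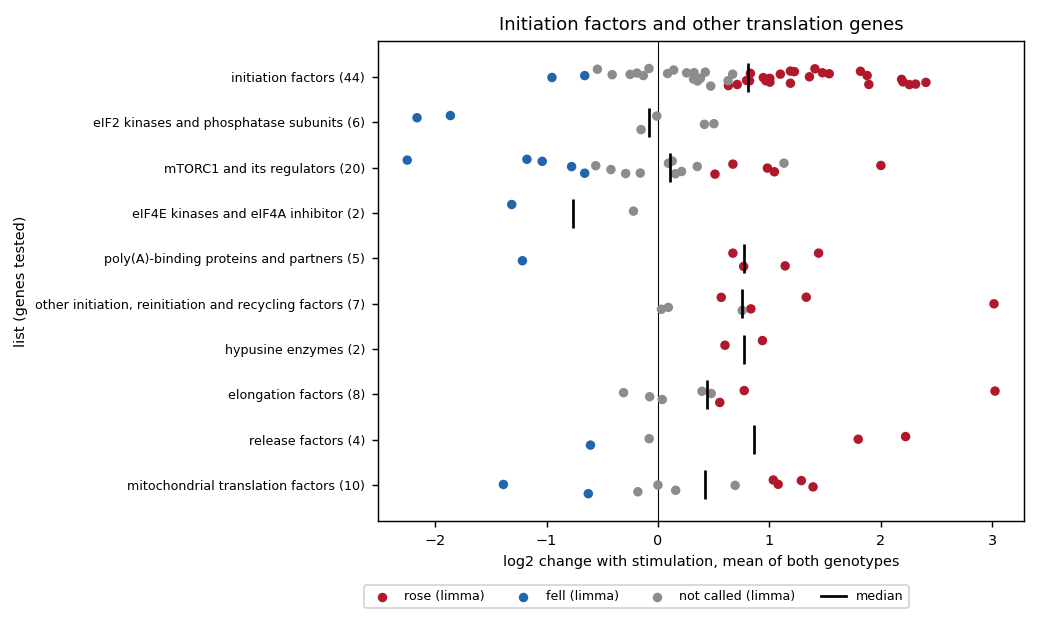
Log2 change with stimulation (x axis, mean of both genotypes) of the initiation factor genes and of 9 lists of other translation genes (rows, with the number tested), 1 point per gene coloured by limma call and the median as a black bar. The initiation factors have a median of 0.81, mTORC1 and its regulators one of 0.11, and the rows for eIF2 kinases with phosphatase subunits and for eIF4E kinases hold no gene that rose.

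Markers of the cells behind these arrays moved with stimulation too. Of 7 B cell markers listed 6 were measured, and all 6 fell. Their summed signal (log2 of the sum) was 10.89 in stimulated and 13.24 in non-stimulated Tilcara cells, and 10.26 in stimulated and 13.27 in non-stimulated wild-type cells. Cd79a, for a chain of the B cell receptor, read 10.95 in non-stimulated Tilcara and 11.00 in non-stimulated wild-type cells, far above the floor. For 6 neutrophil markers, of which 3 reached the floor, the sum was 5.45 and 5.94 in stimulated and non-stimulated Tilcara cells. In wild-type cells it was 5.60 with stimulation and 9.56 without it, so the non-stimulated wild-type array stood apart. S100a8 and S100a9 made up most of the sum in that array. Ly6g, Camp and Ngp lay below the floor there, and Elane lay close to it. For 7 T cell markers the sum was 6.14 and 6.38 in stimulated and non-stimulated Tilcara cells, against 6.45 and 7.29 in wild-type cells. Of the NK cell markers 5 of 5 fell, where 22.8% of all genes tested did. Both stimulated signals of Ncr1, Klrd1 and Klrk1 lay below the floor, as did the stimulated wild-type signal of Prf1. The sizes of these changes are therefore uncertain. The sum of 5 macrophage markers was 7.70 and 6.77 in stimulated and non-stimulated Tilcara cells, against 7.43 and 7.57 in wild-type cells. Of the 4 tested, 1 rose and 2 fell. The 1 that rose, Cd68, had the highest signal of the list in every array, while Adgre1 (-1.39) and Lyz2 (-1.81) fell. Adgre1 (4.70) and Lyz2 (5.99) exceeded the floor only in the non-stimulated wild-type array. They entered the test only through that array, so their calls are not read as a response to stimulation. For 3 plasmacytoid dendritic cell markers the sum was 11.60 and 10.57 in stimulated and non-stimulated Tilcara cells. In wild-type cells it was 11.64 and 10.50. Irf8 rose and made up most of each sum, at 11.54 and 10.40 in Tilcara and 11.60 and 10.28 in wild-type cells. Siglech fell (-1.75), with both stimulated signals below the floor, and Tcf4 was not called. The part of other cells in the results was not tested, and in such bulk samples fewer cells of a type and less RNA per cell cannot be told apart.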

How the data were processed

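RNA of 4 samples of sorted mouse B cells was hybridised to Affymetrix arrays, 1 array per group, and groups came from the sample titles and labels. The deposited log2 signals of 41345 probe sets come from RMA, run by the authors per the submitters' processing notes, with no version named. RMA corrects background, equalises the distributions of the arrays and summarises probes, so a change in total RNA per cell cannot be seen. The array medians lay between 3.73 and 3.79, and the single array per group limits the precision. Software settings of the authors were not stated in the labels.

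The platform annotation gave exactly 1 symbol to 23521 probe sets, which were the ones named, several to 1814 (9 of these with an Eif symbol) and none to 16010. All 45 gene IDs were found in RefSeq's mouse gene table. Groups were compared by differences of log2 signals without a test, with a threshold of 2-fold. A limma 3.58.1 fit in R 4.3.3 with stimulation and genotype as additive terms ran over the 12456 genes above the floor, with eBayes and Benjamini-Hochberg adjustment over all of them at 0.05. In it the 2 genotypes were the samples of each state, so p-values measure only the spread between these arrays, and 1 residual degree of freedom, the difference of the responses, was left. The fit was also run on simulated data in which every gene had the same spread, so this run does not test the calls made on these arrays.

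Every initiation factor gene is named. Values in all 4 arrays were set out for the largest and smallest stimulation difference of each complex and for any gene differing 2-fold between genotypes, and further genes were chosen after their values were seen. From each other list up to 3 genes with the largest changes were named, and from the eIF2 kinase, mTORC1 and eIF4E kinase lists all that passed. The members and lists were chosen with earlier results of these data known, and the assignment to complexes and the split of eIF2B and eIF3 were written after the values were seen. Promoter windows came from RefSeq (GRCm38.p6) and were searched for motifs after the values were seen. Alternatives covered scaling, probe set choice, the floor, the model and the size threshold.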

Additional observations from a re-analysis of the deposited data

How the results depend on the processing

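With 1 array per group no array could be left out and no spread within a group is known. The labels give no replicate numbers, and the fit already pairs the arrays of a genotype through its genotype term. Over the 7 alternative settings of the fit, 25 to 29 initiation factor genes rose and 2 to 3 fell, and their share of rising among all calls was 89.3% to 93.1%, against 44.2% to 49.7% for all genes. No scaling moved the median of all genes by over 0.1. Cyclic loess between arrays lowered the median difference over the genes to 0.715 in Tilcara and 0.55 in wild type, and turned Eif3h to -0.12 (limma, adjusted p = 0.564) and Eif4a1 to -0.069 (limma, adjusted p = 0.758); the cause was not tested. With a threshold of 1.5-fold in place of 2-fold, 27 genes were higher and 3 lower with stimulation in Tilcara. In wild type 24 were higher and 2 lower. Among stimulated cells 1 gene was higher in Tilcara than wild type. The responses differed for 1 gene larger and 1 smaller in Tilcara. The shares of all genes at 1.5-fold were not computed, so these counts have no background beside them. Eif4b was lost under cyclic loess (0.43, limma, adjusted p = 0.0765) and Eif4e1b under an intensity trend (limma, adjusted p = 0.0508). Under at least 1 setting Eif2a, Eif3j1, Eif4a1, Eif4ebp2, Eif4enif1, Eif4g2 and Eif5a2 passed the test. Signals near the floor, as of Eif4e1b, limit what can be read.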
